A study of Mus musculus with 8 samples.

Results

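The 7 genes described here encode 2 families of proteins that shorten the life of messenger RNAs: the zinc finger proteins Zfp36, Zfp36l1 and Zfp36l2, and the BTG/TOB proteins Btg1, Btg2, Tob1 and Tob2. They were chosen by name and function, as decay factors that hold T cells in the resting state, not by a threshold on measured values. Earlier results of these data were known when they were chosen, so counts of members that passed are not independent evidence. All 7 were found among the 55573 genes of the deposited count table, and all 7 were among the 12500 genes that passed the filter on low counts. RNA had been sequenced from naive CD8+ T cells, cytotoxic lymphocytes that have not yet met antigen, sorted from the spleen and lymph nodes of male C57BL/6 mice. 3 libraries carried the genotype label WT (1 from mice of 7 weeks, 2 from mice of 8 weeks) and 5 the label Furin KO (1 of 7 weeks, 4 of 8 weeks). No treatment is named for either group, and the cells were used ex vivo. Which part of Furin was removed, in which cells and by which driver is not given in the sources used here, and the labels do not say that the libraries are from different mice. The p-values then reflect only how far these libraries scatter, which may be technical. By their titles the libraries form 3 runs of consecutive numbers, S1-S2 (WT replicate 1, Furin KO replicate 1), S3-S5 (WT replicate 2, Furin KO replicates 2 and 3) and S6-S8 (WT replicate 3, Furin KO replicates 4 and 5). No label calls these runs a batch. They were first noticed in these same counts, so a p-value between runs describes these libraries and is not independent evidence that the runs exist.

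ZFP36 (tristetraprolin), ZFP36L1 and ZFP36L2 bind AU-rich stretches in the 3′ untranslated regions of short-lived messages through a pair of CCCH zinc fingers, and recruit the CCR4-NOT complex, which removes the poly(A) tail. BTG1, BTG2, TOB1 and TOB2 share an N-terminal domain that binds the CNOT7 and CNOT8 deadenylases, and the TOB proteins also bind poly(A)-binding protein. In naive T cells BTG1 and BTG2 are known to keep messenger RNA levels low and TOB1 to restrain activation, while ZFP36 family proteins limit cytokine messages such as that of tumour necrosis factor.

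The ZFP36 proteins are known to act on their own messages, and the sites are shown because the families differ in how many they hold. The heptamer TATTTAT (with U for T in the RNA, searched on the sense strand) occurred 3 times in the 3′ untranslated region of each of Zfp36 (774 bases), Zfp36l1 (1835 bases) and Zfp36l2 (1822 bases), in the longest coding transcript of GENCODE M21. It occurred once in Btg2 and once in Tob2, and in this window these letters were not present in Btg1 (4166 bases) or Tob1 (767 bases). Among 10603 tested genes with a 3′ untranslated region, 29.7% held at least 1 heptamer and 3.87% held 3 or more. The 3 ZFP36 genes also held 1 nonamer TTATTTATT each, which contains the heptamer and was present in 8.06% of genes. The first heptamer after the stop codon is in capitals in the 27 bases around it, in mRNA sense, from chr7:28376967-28376993, chr12:80108423-80108449, chr17:84184915-84184941, chr1:134077250-134077276 and chr15:81849861-81849887 (GRCm38, all minus strand):
Zfp36: gtgggcccttTATTTATgacgacttta
Zfp36l1: tatcaaaacgTATTTATtgccaaacta
Zfp36l2: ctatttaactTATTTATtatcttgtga
Btg2: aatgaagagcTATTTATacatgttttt
Tob2: atcacctgctTATTTATgtacgaggtt
A match is a description of the letters, not evidence of binding.

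Per kilobase of exon, the ZFP36 genes stood highest and the TOB genes lowest. Zfp36 averaged 212.5 ± 88.1 CPM per kilobase (SD, n = 8; CPM are counts scaled to a common library total with TMM factors) and Zfp36l2 187 ± 51.3. Zfp36l1 followed at 103 ± 16.2, Btg1 at 81.8 ± 10.01 and Btg2 at 59.2 ± 9.01 CPM per kilobase. Tob1 stood at 20.4 ± 8.26 and Tob2 at 11.5 ± 2.75 CPM per kilobase. The exon length of Zfp36 includes the long first exon of 1 of its transcripts, and its level per kilobase is lower for that. That of Tob2 was 6664 bases, against 4151 in its longest coding transcript, while both lengths were 2288 bases for Tob1. In CPM, Tob2 was above Tob1 in every library (ratio of Tob1 to Tob2 0.348 to 0.799), so their order here rests on the exon lengths. The order between Zfp36 and Zfp36l2 was not fixed, with Zfp36 the higher in 5 of 8 libraries, whereas each later neighbour was above the next in 8 of 8 libraries. Over all 8 libraries the ranges of Zfp36l2 and Zfp36l1 did not overlap, nor did those of Btg2 and Tob1. The other neighbouring ranges overlapped. The 3 ZFP36 genes made up 64.4% to 79.0% of the summed level per kilobase of the 7 genes. That share was 64.4% to 70.8% in the S3-S5 libraries and 72.4% to 79.0% in the other 5.

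**Figure D1:**
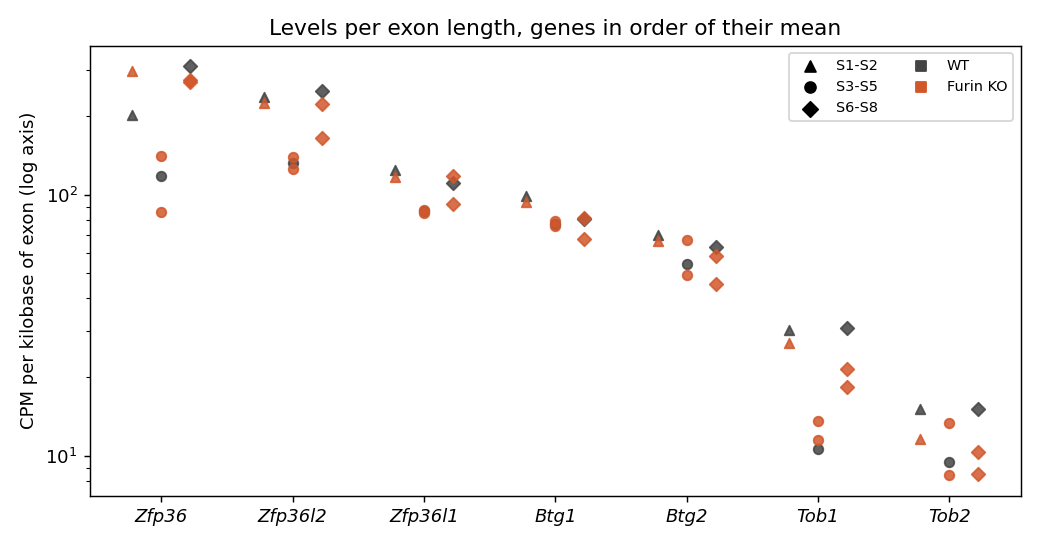
Level per exon length of the 7 genes in the 8 libraries, in CPM per kilobase of exon on a log axis, with genotype by colour and title run by marker shape. Zfp36 runs from 85.7 to 309.8 CPM per kilobase and Tob2 from 8.42 to 15.1, and the S3-S5 circles lie at the bottom of the columns of Zfp36, Zfp36l2, Zfp36l1 and Tob1.

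The genotype comparison asked how the absence of FURIN, a protease of the secretory pathway, changes the transcriptome of these cells. Furin itself was at 69.3 ± 11.8 CPM in the libraries labelled Furin KO (n = 5) and 63.5 ± 5.71 CPM in WT (n = 3), and since the deleted part of the gene is not known here, its whole-gene counts do not check the labels. Genotype here means the libraries labelled WT or Furin KO throughout. 0 of the 7 decay factors changed with genotype by edgeR's quasi-likelihood test (0 at an unadjusted p under 0.05, and 0 by DESeq2), where 0.032% of all genes tested passed. The fitted log2 fold changes of Furin KO over WT ran from -0.38 (Tob1) to 0.024 (Zfp36), with a median of -0.13 against -0.0010 over all genes tested. 6 of the 7 were below 0, as were 6273 of 12500 genes. At 0 of the 7 genes did all 5 Furin KO libraries lie below all 3 WT libraries, a pattern that 1.59% of tested genes showed (1.31% showed the opposite order). The edgeR adjusted p was 0.9998 for each of the 7, and each 95% interval, given with its gene, held values on both sides of 0.

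Zfp36 (ENSMUSG00000044786, chr7:28376784-28380253, minus strand, GRCm38), the founding member, varied most between libraries. It stood at 703 CPM in WT and 1032 CPM in Furin KO in the S1-S2 run. In the S3-S5 run the WT library had 410.1 CPM and the Furin KO libraries 486 and 297 CPM, and in the S6-S8 run the WT library had 1075 CPM and the Furin KO libraries 939.6 and 954 CPM. All 3 S3-S5 libraries, of both genotypes, were below all 5 others. The highest library was 3.62 times the lowest, a ratio that 1.06% of 9275 genes with a mean of at least 5 CPM exceeded (median ratio 1.44). Between genotypes the means were 742 ± 329 CPM (Furin KO, n = 5) and 729 ± 333 CPM (WT, n = 3). This gave a log2 fold change of 0.024 (95% interval -0.65 to 0.69, exact permutation p = 0.946). These exact permutation tests were two-sided, and the smallest p that 5 against 3 libraries allow is 0.0179.

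Zfp36l2 (ENSMUSG00000045817, chr17:84183931-84187947, minus strand), a paralogue known for its part in lymphocyte development, was also low in the S3-S5 libraries. Its levels were 833 CPM in WT and 793 CPM in Furin KO in S1-S2. They were 468 CPM in WT and 444 and 493 CPM in Furin KO in S3-S5, and 884 CPM in WT and 583 and 781 CPM in Furin KO in S6-S8. The S3-S5 libraries again lay below the other 5, with Furin KO replicate 4 the lowest of those 5. Genotype means were 619 ± 162 CPM (Furin KO) and 728 ± 227 CPM (WT), with a log2 fold change of -0.24 (95% interval -0.64 to 0.17, exact permutation p = 0.5).

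Zfp36l1 (ENSMUSG00000021127, chr12:80107754-80113013, minus strand), which acts with Zfp36l2 to restrain the cell cycle of developing lymphocytes, varied less. It was at 370.3 CPM in WT and 349.9 CPM in Furin KO in S1-S2. In S3-S5 the levels were 259 CPM in WT and 255 and 261 CPM in Furin KO, a spread of 3.13 CPM (SD, n = 3). In S6-S8 they were 331 CPM in WT and 275 and 351 CPM in Furin KO. The S3-S5 libraries were below the other 5 here too, by a margin of 261 against 275 CPM at the nearest. The genotype log2 fold change was -0.10 (95% interval -0.37 to 0.17, exact permutation p = 0.661).

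Btg1 (ENSMUSG00000036478, chr10:96617006-96622809, plus strand), an antiproliferative partner of CNOT7, was the most abundant BTG gene. Its S1-S2 levels were 522 CPM in WT and 495 CPM in Furin KO, both above all 6 other libraries, a pattern seen in 8.04% of tested genes. It was at 407 CPM in WT and 399.9 and 417 CPM in Furin KO in S3-S5, and at 425 CPM in WT and 358 and 428 CPM in Furin KO in S6-S8. These 2 runs overlapped. Genotype means were 419 ± 49.8 and 451 ± 62.2 CPM (log2 fold change -0.11, 95% interval -0.34 to 0.13, exact permutation p = 0.393).

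Btg2 (ENSMUSG00000020423, chr1:134075170-134079120, minus strand), which is known as a p53-induced and immediate early gene, did not share the low S3-S5 levels. The libraries had 193 CPM (WT) and 182 CPM (Furin KO) in S1-S2. In S3-S5 they had 149 CPM (WT), 134 and 183 CPM (Furin KO), and in S6-S8 173 CPM (WT), 124 and 159.9 CPM (Furin KO). The lowest library was Furin KO replicate 4 of S6-S8, and the 3 runs overlapped except that S1-S2 stood above S6-S8. Genotype means were 157 ± 27.0 and 171 ± 21.99 CPM (log2 fold change -0.13, 95% interval -0.40 to 0.14, exact permutation p = 0.464).

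Tob1 (ENSMUSG00000037573, chr11:94211454-94215495, plus strand), a brake on T cell activation, was low in S3-S5 like the ZFP36 genes. It stood at 69.2 CPM in WT and 61.8 CPM in Furin KO in S1-S2. In S3-S5 it stood at 24.3 CPM in WT and at 26.2 and 30.9 CPM in Furin KO. In S6-S8 it stood at 70.4 CPM in WT and at 41.9 and 49.2 CPM in Furin KO. All 3 S3-S5 libraries were below the other 5, and 2.45% of 9275 genes had a larger ratio of highest to lowest library than its 2.90. Genotype means were 42.0 ± 14.3 and 54.6 ± 26.3 CPM (log2 fold change -0.38, 95% interval -0.98 to 0.22, exact permutation p = 0.554). Within S3-S5 both Furin KO libraries were above the WT library, and within S6-S8 both were below it.

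Tob2 (ENSMUSG00000048546, chr15:81848272-81858796, minus strand), the paralogue of Tob1, had the smallest unadjusted p of the 7 for genotype, 0.0552, and did not pass. It was at 100.4 CPM in WT and 77.3 CPM in Furin KO in S1-S2, at 62.9 CPM in WT and 56.1 and 88.9 CPM in Furin KO in S3-S5, and at 100.5 CPM in WT and 56.8 and 68.6 CPM in Furin KO in S6-S8. The genotypes overlapped because WT replicate 2 was low, below Furin KO replicates 1, 3 and 5. Their means were 69.5 ± 13.96 CPM (Furin KO, n = 5) and 87.9 ± 21.7 CPM (WT, n = 3), with a log2 fold change of -0.34 (95% interval -0.68 to 0.0084, exact permutation p = 0.196). At 0 of the 7 genes was every Furin KO library below the WT library of its own run, a pattern of 6.22% of tested genes. With the title run as a factor 0 of the 7 passed (lowest adjusted p = 0.901, Tob2), where 0.096% of genes did (0.064% as higher).

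**Figure D2:**
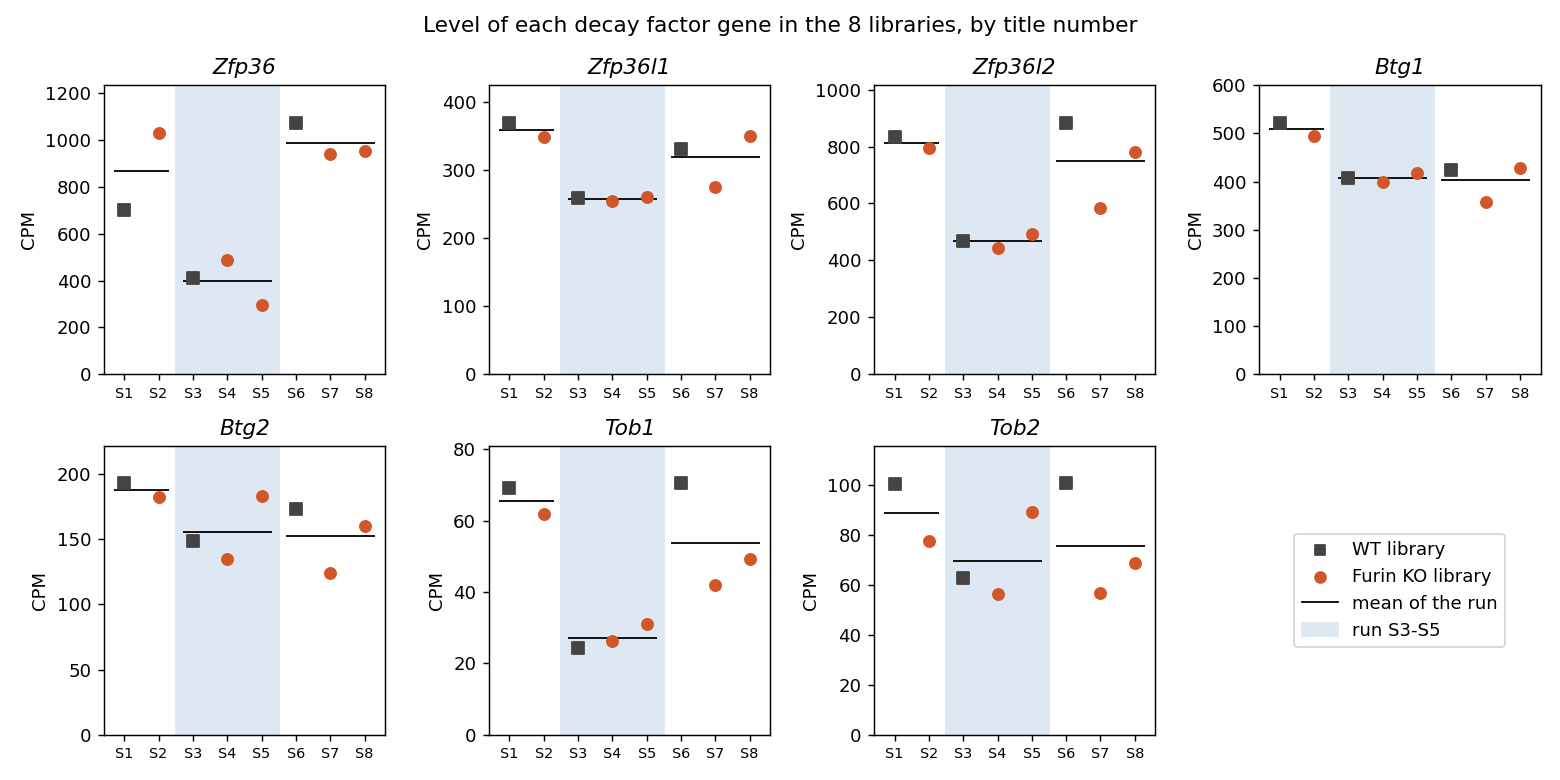
CPM of each of the 7 genes in the 8 libraries by title number, with WT as squares, Furin KO as circles, the mean of each run as a line and the S3-S5 run shaded. The shaded points of Zfp36, Zfp36l1, Zfp36l2 and Tob1 all lie below the points of the other 5 libraries, and those of Btg1, Btg2 and Tob2 do not.

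Between runs of the same age and the same make-up (1 WT and 2 Furin KO libraries of 8 weeks each), 3 of the 7 genes were lower in S3-S5 than in S6-S8 and 0 were higher. By edgeR's quasi-likelihood test with genotype and run in the model, 1.98% of the 12500 genes passed, 1% as lower and 0.984% as higher. Zfp36 fell by 1.32 on the log2 scale (SE 0.13, 95% interval -1.60 to -1.04, edgeR adjusted p = 3.67e-06), from 989 ± 74.4 to 398 ± 95.01 CPM (n = 3 each). Tob1 fell by 0.96 (SE 0.15, edgeR adjusted p = 0.000781), from 53.9 ± 14.8 to 27.1 ± 3.43 CPM. Zfp36l2 fell by 0.67 (SE 0.097, edgeR adjusted p = 0.000271), from 749 ± 153 to 468 ± 24.9 CPM. Zfp36l1 had -0.30 (SE 0.084) and did not pass (edgeR adjusted p = 0.0693), though it passed by DESeq2 (adjusted p = 0.02), without the filter on low counts and without Furin KO replicate 4. Without that filter the edgeR adjusted p of Zfp36 was 5.79e-66 at a log2 difference of -1.31. Passes of the fit without the filter, here and below, are therefore not comparable with the others. All 4 of these genes had their 3 S3-S5 libraries below all 5 others, against 4.67% of tested genes (4.25% had them above). Below the 3 S6-S8 libraries alone lay 9.03% of tested genes, and the same 4 of 7. With 3 libraries against 3, an exact two-sided permutation test cannot go below 0.1, the value it gave for each of these 4.

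Btg1, Btg2 and Tob2 had log2 differences of 0.017 (95% interval -0.14 to 0.18), 0.036 (-0.20 to 0.27) and -0.082 (-0.42 to 0.25), and edgeR adjusted p of 0.959, 0.942 and 0.901. The intervals of Zfp36, Zfp36l2 (-0.87 to -0.47) and Tob1 (-1.28 to -0.64) lay wholly below those of all 3 of these genes. The difference between genes was not itself tested. Within single libraries, Tob1 and Tob2, of 1 family, parted. The ratio of Tob1 to Tob2, each in CPM, was 0.348 to 0.467 in the S3-S5 libraries and 0.689 to 0.799 in the other 5. Between the families, the ratio of Zfp36 to Btg1 was 0.713 to 1.22 in S3-S5 and 1.35 to 2.62 in the others. Within the ZFP36 family, the ratio of Zfp36 to Zfp36l1 was 1.14 to 1.91 in S3-S5 and 1.9 to 3.41 in the others, so the ranges overlapped. By contrast the ratio of Btg1 to Btg2 was 2.28 to 2.97 in S3-S5 and 2.45 to 2.88 in the others.

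The summed levels of immediate early genes and of naive markers moved with the same run, and the other measures given here did not. The summed level of the 25 immediate early genes was 1910 to 2730 CPM in S3-S5 and 5040 to 6550 CPM in the other 5. The summed level of 8 naive CD8+ T cell markers was 10800 to 11200 CPM in S3-S5 and 9450 to 9930 CPM in the others. Defining markers of other cells were near 0 in every library: the 4 B cell markers summed to at most 1.34 CPM (Ms4a1 at 0), the 4 myeloid markers to at most 2.08 CPM (Csf1r and Adgre1 at 0), the 4 dendritic cell markers to at most 1.45 CPM, the 4 CD4 and regulatory T cell markers to at most 5.08 CPM, and the 4 erythroid markers to 0. The NK list summed to 33.6 to 51.7 CPM, nearly all of it Eomes, which CD8+ T cells can express, with Ncr1 at 0. Mitochondrial genes took 2.46% to 3.21% of counts in S3-S5 and 2.18% to 3.22% in the others. Total counts were 18641969 to 20944639 in S3-S5 and 11308220 (Furin KO replicate 5) to 21040431 in the others. The part of these measures in the differences between runs was not tested. In bulk RNA fewer cells with a transcript and less of it per cell cannot be told apart.

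Against S6-S8, the S1-S2 libraries of 7-week mice gave 0 of 7 genes past the threshold, where 1.47% of genes passed, with 2 of 7 at an unadjusted p under 0.05 (Btg1 and Btg2). Btg1 had a log2 difference of 0.32 (95% interval 0.15 to 0.50, edgeR adjusted p = 0.0613) and passed by DESeq2 (adjusted p = 0.00495), by limma-voom and without the filter on low counts. Its levels were 508 ± 19.5 CPM in S1-S2 (n = 2) and 403 ± 39.4 CPM in S6-S8 (n = 3). Zfp36 had -0.19 (-0.50 to 0.12) and Tob1 0.26 (-0.083 to 0.61). Age and run cannot be told apart in this comparison. It rested on few libraries: without Furin KO replicate 1 0 genes of the whole table passed by edgeR (1160 at an unadjusted p under 0.05).

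**Figure D3:**
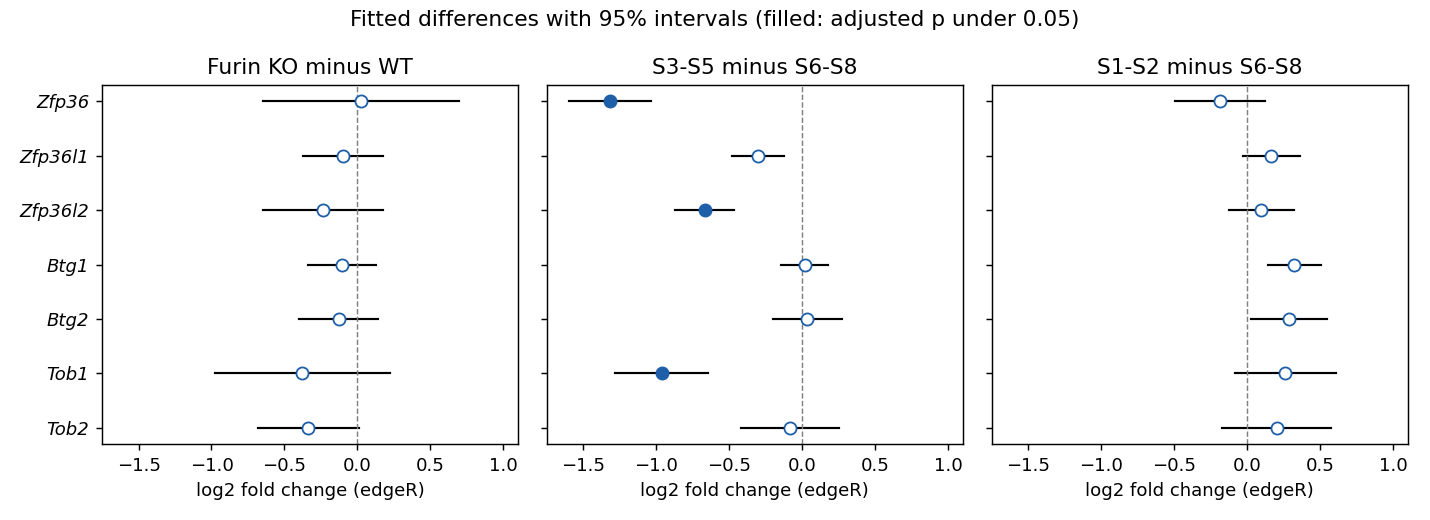
Fitted log2 fold changes with 95% intervals for the 7 genes in 3 comparisons: Furin KO minus WT, S3-S5 minus S6-S8 and S1-S2 minus S6-S8. Filled points passed the edgeR threshold. Zfp36 (-1.32), Tob1 (-0.96) and Zfp36l2 (-0.67) are the filled points, all in the middle panel, and the genotype intervals of all 7 genes cross 0.

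Because Tob1 was low in S3-S5 while Btg2 was not, the 250 bases before their RefSeq start sites are shown, 5′ to 3′ on the strand of the gene (RefSeq, GRCm38.p6). They are chr11:94211204-94211453 (plus strand) and chr1:134079156-134079405 (minus strand). Searched on both strands, and in capitals where present, were the cyclic AMP response element TGACGTCA, its shorter form TGACG or, on the other strand, CGTCA, which lies within the whole element, the CArG box bound by serum response factor and the TATA box letters TATAAA.
Tob1: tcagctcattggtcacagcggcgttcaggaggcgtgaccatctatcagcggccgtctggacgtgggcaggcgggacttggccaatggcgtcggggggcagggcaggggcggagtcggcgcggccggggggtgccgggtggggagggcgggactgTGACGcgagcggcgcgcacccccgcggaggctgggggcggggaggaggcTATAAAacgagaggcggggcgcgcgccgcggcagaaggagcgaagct
Btg2: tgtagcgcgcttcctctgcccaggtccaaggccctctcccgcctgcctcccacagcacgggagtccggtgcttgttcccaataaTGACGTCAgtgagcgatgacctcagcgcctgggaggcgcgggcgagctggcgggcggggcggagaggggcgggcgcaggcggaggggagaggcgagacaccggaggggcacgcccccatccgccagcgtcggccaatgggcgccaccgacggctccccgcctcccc
The window of Zfp36 held 1 CArG box match, 58 bases upstream, which 1.47% of 32851 windows of the same length hold, and GENCODE M21 places this window inside the first exon of a longer Zfp36 transcript. Btg2 held 1 whole cyclic AMP response element, 166 bases upstream, which 1.55% of windows hold. Tob1 held the shorter form 96 bases upstream and TATAAA 47 bases upstream, which 17.8% and 12.4% of windows hold on either strand. The AP-1 letters TGAGTCA or TGACTCA, held by 4.46% of windows, were in 0 of the 6 windows matched to the 7 genes (Zfp36l2 had none to match). The windows of Btg1 and Zfp36l1 held TATAAA, at 26 and 29 bases upstream, and Btg1 also 2 of the shorter form. That of Tob2 (chr15:81858327-81858576) held none of these letters, but it lies within the span of Tob2 in GENCODE M21 (chr15:81848272-81858796, minus strand). These matches are descriptions and say nothing of which factor acts there. Any link between these letters and the levels by run was not tested.

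Other genes of the decay machinery, from lists chosen by function, gave 2 calls in all between S3-S5 and S6-S8, where 1.98% of all tested genes passed. Of the CCR4-NOT complex, the deadenylase that both families recruit, 0 of 12 tested genes passed between S3-S5 and S6-S8 (3 at an unadjusted p under 0.05, 0 by DESeq2), with a median log2 difference of 0.0080 against -0.0040 over all genes. Cnot6l had 0.25, Cnot2 0.19 and Cnot1, the scaffold, 0.17 (edgeR adjusted p = 0.137, 0.340 and 0.291). Among PAN2-PAN3 and poly(A)-binding genes 0 of 8 passed (3 unadjusted, 0 by DESeq2), with Pabpc4 at -0.35, Pan2 at -0.23 and Pan3 at -0.21. Of the decapping and 5′ to 3′ decay genes 0 of 18 passed (4 unadjusted, 0 by DESeq2). The decapping enzyme gene Dcp2 had 0.54 (edgeR adjusted p = 0.0880, and 0.0122 without the filter on low counts), Edc4 -0.26 and Ddx6 0.16. The exosome gave 0 of 14 (0 unadjusted, 0 by DESeq2), with Dis3l at -0.18, Exosc1 at 0.16 and Exosc5 at -0.11.

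Among 20 tested genes of other RNA-binding decay regulators, 2 were higher in S3-S5 than in S6-S8 and 0 lower. Of all tested genes 0.984% passed as higher and 1% as lower. Celf1, which binds GU-rich elements, rose by 0.52 (edgeR adjusted p = 0.000271), and Ago2, the Argonaute slicer of microRNA silencing, by 0.35 (edgeR adjusted p = 0.0314). Their levels lay apart in S6-S8 rather than in S3-S5: Celf1 was at 178 to 197 CPM in S6-S8 and 255 to 275 CPM in the other 5 libraries. Both also passed between S1-S2 and S6-S8 (log2 differences of 0.46 and 0.49). Ago2 lost its call between S3-S5 and S6-S8 without any of WT replicates 1, 2 and 3 or Furin KO replicates 3 and 4, and in the 8-week libraries alone (edgeR adjusted p up to 0.181), and Celf2 had 0.24 (edgeR adjusted p = 0.105), which passed by DESeq2 (adjusted p = 0.0207), so that DESeq2 called 3 of 20 higher and 0 lower. Of the kinases, phosphatases and 14-3-3 proteins that control ZFP36 proteins, 0 of 12 passed (2 unadjusted, 0 by DESeq2), with the 14-3-3 genes Ywhaq at 0.41, Ywhab at 0.22 and Ywhaz at 0.16. The remaining tested family member, Btg3, was near the detection limit at 0.291 to 2.11 CPM. With genotype, 0 genes of any of these lists passed by edgeR or DESeq2, and the lowest unadjusted p belonged to Exosc1 (log2 fold change 0.25) in the exosome, Dcps (0.24) in decapping, Zc3h12d (0.23) among the RNA-binding proteins, Tnks1bp1 (-0.26) in the CCR4-NOT list, Parn (0.11) in the poly(A) list and Mapkapk5 (0.49) among the kinases.

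Messages known or held to carry AU-rich elements were lower in S3-S5 at 8 of 24 tested genes, with 0 higher and a median of -0.27. Over all tested genes 1% passed as lower and 0.984% as higher. Tnf, the classical target of ZFP36, fell by 1.46 on the log2 scale (SE 0.18, edgeR adjusted p = 4.01e-05). It was at 38.4 and 44.2 CPM in S1-S2, at 19.1, 23.9 and 12.8 CPM in S3-S5 and at 60.4, 49.1 and 44.8 CPM in S6-S8, so that both Zfp36 and Tnf were low in the same 3 libraries. Ier2, an immediate early gene, fell by 0.88 (edgeR adjusted p = 5.54e-05). The others that passed were Fos, Pim1, Pim3, Nfkbia, Tnfaip3 and Cd69. With genotype 0 of 24 passed (2 unadjusted, 0 by DESeq2), Irf4 having 1.27 (edgeR adjusted p = 0.951) and Irf8 0.69. Without the filter on low counts, a fit whose passes are not comparable with the others, Irf4 had an edgeR adjusted p of 0.00543.

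Immediate early genes, which stimulation switches on within minutes, were lower in S3-S5 at 14 of 24 tested genes, with 0 higher and a median of -0.75. The share of all tested genes that passed as lower was 1%, and as higher 0.984%. Dusp1, a phosphatase of MAP kinases, fell by 2.63 on the log2 scale, Fos fell by 2.58 and Jun fell by 2.51 (edgeR adjusted p = 2.04e-10, 2.01e-08 and 2.01e-08). Fos ranged from 85.8 to 204 CPM in S3-S5 and from 801 to 1075 CPM in the other 5. These lists share Fos, Ier2 and Cd69, and the AU-rich list is therefore not separate from the early genes. With genotype 0 of 24 early genes passed (0 unadjusted, 0 by DESeq2), Myc having 0.33 and Fosl2 -0.23.

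Quiescence factors gave 1 of 20 genes higher and 1 lower in S3-S5, with a median of 0.098, where 0.984% of all tested genes were higher and 1% lower. Ccr7, the homing receptor of naive T cells, rose by 0.36 (edgeR adjusted p = 0.00603), from 404 to 410.4 CPM in S6-S8 to 514 to 530.1 CPM in S3-S5. Klf2, a transcription factor that maintains the resting state, fell by 0.41 (edgeR adjusted p = 0.0239), a call lost by DESeq2 (adjusted p = 0.114) and without Furin KO replicate 3, WT replicate 3 or Furin KO replicate 5. By DESeq2 3 of 20 were higher (Ccr7, Lef1 and S1pr1) and 0 lower. S1pr1, the receptor for exit from lymph nodes, had 0.28 and did not pass (edgeR adjusted p = 0.0558, and 0.00558 by DESeq2). With genotype 0 of 20 passed (2 unadjusted, 0 by DESeq2), Il7r having -0.29 and Tsc22d3 -0.51. Without the filter on low counts, a fit whose passes are not comparable with the others, Tsc22d3 had an edgeR adjusted p of 0.000689. 

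**Figure D4:**
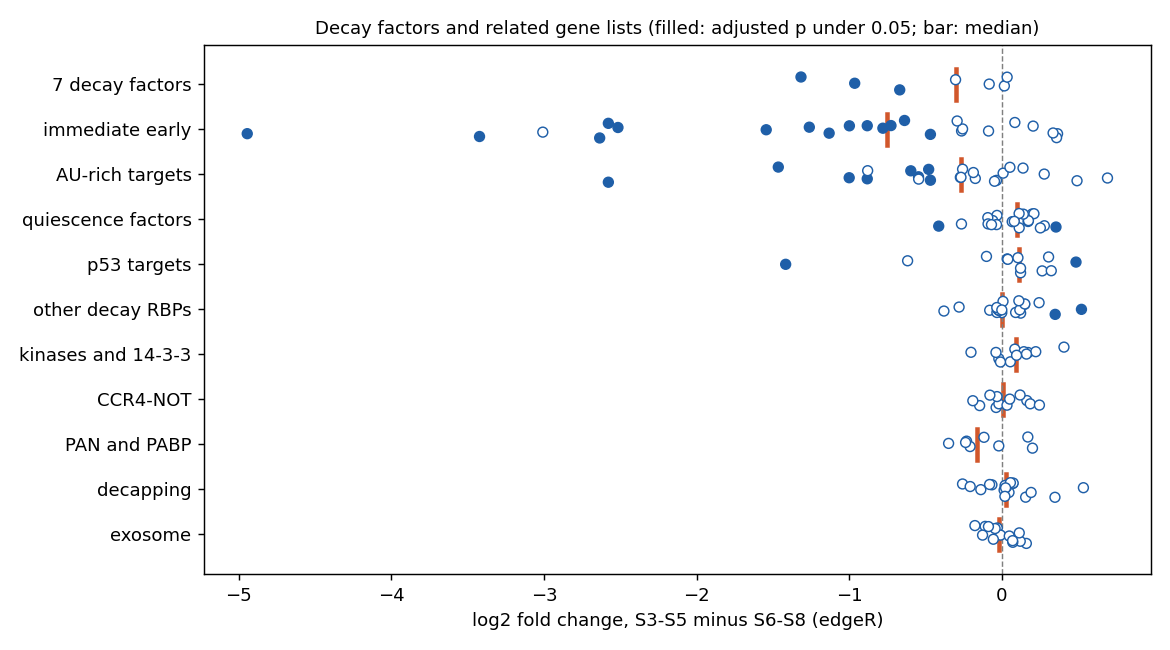
Log2 differences S3-S5 minus S6-S8 for the 7 decay factors and 10 related gene lists, 1 point per gene with a mean of at least 1 CPM, filled where the edgeR adjusted p was under 0.05, and a bar for the median over all tested genes of the list. The medians of the decay factors (-0.30) and the AU-rich list (-0.27) lie between those of immediate early genes (-0.75) and the general decay machinery. Medians of that machinery lie between -0.16 and 0.030. Single decay factors are spread more widely, from -1.32 (Zfp36) to 0.036 (Btg2). Fos, Ier2 and Cd69 are in both the AU-rich and the early gene list.

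The genes most alike to each member were sought among 8794 named genes with a mean of at least 5 CPM, by Pearson's r of log2(CPM + 1) over the 8 libraries, for the 5 members whose highest library exceeded 1.5 times the lowest. These values describe 8 libraries that share their runs, and carry no p. For Zfp36 they were Klc2 (r = 0.989), Tnf (0.985) and Dusp6 (0.979), all lowest in S3-S5. For Zfp36l2 they were Pnrc1 (0.988), Tnfaip3 (0.982) and Cited2 (0.976), and for Tob1 Cited2 (0.983), Tnfaip3 (0.972) and Plk3 (0.965), so that Zfp36l2 and Tob1 shared a pair of neighbours. Tnfaip3, an inhibitor of NF-kB signalling, was at 85.4 to 86.9 CPM in S3-S5 and at 116 to 241 CPM in the other 5, with Furin KO replicate 4 the lowest of these, as for Zfp36l2 and Tob1. Tob2 followed other genes, Dnajb1 (0.962), Tsc22d3 (0.961) and Crk (0.944), and Btg2 was nearest to Gdpd5 (0.953), Wdcp (0.948) and Msl2 (0.940). Tsc22d3, the glucocorticoid-induced leucine zipper gene, was at 488 and 388 CPM in WT replicates 1 and 3 and at 323 CPM in Furin KO replicate 3, which were also the 3 highest libraries of Tob2.

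Genes that overlap the members had low counts. Antisense or non-coding genes overlap Zfp36 (Gm44710), Zfp36l1 (Gm26669), Zfp36l2 (AC132455.1) and Tob2 (Gm49476) on the opposite strand, and each was at most 0.731 CPM in any library. Since the strand setting of the counting is not given in the sources used here, reads of the 2 strands cannot be told apart where such genes overlap. The processed copies Btg1-ps1, Btg1-ps2 and Zfp36l1-ps had at most 13 counts in any library, against at least 4866 for Btg1 and 3997 for Zfp36l1.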

How the data were processed

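RNA of 8 libraries was measured by sequencing. The authors deposited 1 table of raw counts per gene with 55573 Ensembl IDs. FastQC, Trim Galore, STAR, DESeq2 1.24.0 and GRCm38 are named per the submitters' processing notes. How reads were counted, with which annotation and strand setting, is not given in the sources used here. Columns were matched by title, and IDs to GENCODE M21 symbols (55394 matched, 179 not).

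All 8 libraries entered each main edgeR fit of the deposited counts (version 4.0.16, under R 4.3.3 with limma 3.58.1). The spread was estimated anew for each model. Each fit used TMM factors, filterByExpr by genotype and the two-sided quasi-likelihood test. The threshold was 0.05 on p-values adjusted over 12500 genes by Benjamini and Hochberg. Genotype was fitted without covariates, and title runs with genotype in the model. CPM use TMM-scaled library sizes. Exact permutation tests used log2(CPM + 1). Level per kilobase used the union of exons. Total counts of 11308220 to 21040431 set the precision. No pair of libraries agreed within sampling noise (chi-square per degree of freedom at least 10.9). Replicate numbers follow accession order and pair nothing.

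The members and lists were chosen with earlier results of these data known. By rule, all 7 members are named, and of each list up to 3 genes of lowest p between S3-S5 and S6-S8 and up to 2 for genotype; other genes that passed, and Celf1, Ago2, Tnfaip3 and Tsc22d3 levels, were named after their values were seen. Alternatives were other size factors, no filter, DESeq2 1.42.0, limma-voom, run or age as a factor, the 8-week libraries, no genotype term and each library left out.

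Tested on simulated data of 12500 genes, the genotype fit recovered 58.2%, 97% and 100% of genes changed 1.5-, 2- and 4-fold, and the run fit 79.1%, 91% and 100%. False calls were 15 of 185 for genotype, more than the threshold of 0.05 allows on average, and 7 of 187 for the run. The changed genes had a mean of at least 5 CPM. In the simulation for genotype no differences between runs were drawn, so its rates need not hold for libraries that share runs.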

Additional observations from a re-analysis of the deposited data

Results flagged for a closer look

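2 of 55 values, those of the genes named here in the 5 Furin KO libraries, passed Dixon's limit for a single distant library, which chance passes in about 1 in 20 cases. Both lay in Furin KO replicate 3, the library with the lowest Zfp36 of the 8 (297 CPM). Myc was at 170.3 CPM there against 312 to 362 CPM in the other 4 Furin KO libraries, and Ccng1, a p53 target, at 142 CPM against 91.5 to 106 CPM. None of the 7 decay factors was among them.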

How the results depend on the processing

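Zfp36, Zfp36l2 and Tob1 passed as lower in S3-S5 than in S6-S8 in all 15 alternatives run (log2 differences of -1.49 to -1.13, -0.81 to -0.55 and -1.11 to -0.72), and Zfp36l1 was lower in all 15 and passed in 3. With genotype 0 of the 7 passed in any of 16 alternatives (lowest adjusted p = 0.683, Tob2). The genotype direction of Zfp36 turned with limma-voom (-0.019) and in the 8-week libraries (-0.15), and over single libraries left out it ranged from -0.26 to 0.42, Zfp36l1 from -0.23 to 0.021 and Btg1 from -0.17 to 0.017; both of the last turned without WT replicate 1. Zfp36l2, Btg2, Tob1 and Tob2 kept a genotype value below 0, but leaving out 1 library moved it from -0.47 to -0.069, -0.22 to -0.034, -0.73 to -0.15 and -0.53 to -0.23, lowest for all 4 without WT replicate 2 and highest without WT replicate 3 (Btg2 without WT replicate 1). Between S3-S5 and S6-S8 leaving out 1 library gave -0.38 to 0.17 for Tob2, -0.060 to 0.080 for Btg1 and -0.13 to 0.14 for Btg2, and between S1-S2 and S6-S8 -0.57 to 0.10 for Zfp36 and -0.037 to 0.24 for Zfp36l2. Btg3, at about 1 CPM, had genotype values of 0.0040 with age as a factor, 0.94 in the 8-week libraries and -0.48 to 0.70 with 1 library left out, and between S3-S5 and S6-S8 0.050 with limma-voom and -1.13 to 0.31 with 1 left out. Genes passing for genotype, 4, numbered 38 without the filter, 14 by DESeq2, 12 with the run as a factor and 3 to 5 with 1 library left out. Between S3-S5 and S6-S8, 248 became 422 without the filter, 430 by DESeq2 and 106 to 225 with 1 left out, with 106 for WT replicate 3 omitted, 115 for Furin KO replicate 5 and 118 for Furin KO replicate 2. Between S1-S2 and S6-S8, 184 became 366, 445 and 0 to 314: 0 without Furin KO replicate 1, 25 without WT replicate 3, 29 without WT replicate 1, 66 without Furin KO replicate 5 and 314 without Furin KO replicate 3. The cause was not tested. No paired analysis was possible because the replicate numbers follow accession order and pair no libraries; the fit with the run as a factor blocks by title run instead.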

Other observations

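The p53 target list was examined because Btg2 is a known p53 target. Between S3-S5 and S6-S8, 1 of its 12 tested genes was higher and 1 lower, where 0.984% of all tested genes were higher and 1% lower. Gadd45a, a stress-induced cell cycle inhibitor, fell by 1.42 on the log2 scale (edgeR adjusted p = 0.000538), with 5.01 to 5.22 CPM in the 3 S3-S5 libraries and 11.3 to 15.2 CPM in the other 5. Trp53inp1 rose by 0.49 (edgeR adjusted p = 0.00107), but like Celf1 it stood apart in S6-S8, at 150.5 to 162 CPM against 209 to 236 CPM in the other 5, and it also passed between S1-S2 and S6-S8 (0.53). Ccng1 had 0.31 and did not pass (edgeR adjusted p = 0.173). For genotype 0 of 12 passed (0 at an unadjusted p under 0.05, 0 by DESeq2), with Sesn1 at -0.22 and Bbc3 at -0.33.

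Between S1-S2 and S6-S8, where age and run cannot be told apart, 4 of the 20 RNA-binding decay regulators were higher and 0 lower. Of all tested genes 0.984% passed as higher and 0.488% as lower. The 4 regulators were Tnrc6b (log2 difference 0.59), a scaffold of microRNA silencing, Rc3h2 (0.53), a Roquin protein that destabilises stem-loop messages, Ago2 (0.49) and Celf1 (0.46), with edgeR adjusted p of 0.00200, 0.0350, 0.0104 and 0.00753. Tnrc6b was at 317 and 359 CPM in S1-S2 and at 221 to 240.0 CPM in S6-S8. Of the quiescence factors Il7r (0.39) and Bach2 (0.39) were higher, and of the immediate early genes Cd69 (0.59) and Klf6 (0.54). Without Furin KO replicate 1, 0 genes of the whole table passed in this comparison by edgeR (1160 at an unadjusted p under 0.05).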
